A study of Mus musculus with 20 samples.

Results

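Seminal vesicle epithelium carrying a construct labelled mNKX3.1 was compared with seminal vesicle epithelium without it, both grown as grafts. The comparison takes 8 of the 20 libraries of the series, 4 labelled mNKX3.1 and 4 labelled SVE, and all genes with a value of 5 or more in at least 4 of the 20 libraries, which left 13456 of 23284 genes. Each graft was a tissue recombinant, in which mouse epithelial cells were combined with urogenital sinus mesenchyme of Sprague Dawley rats. The mNKX3.1 grafts held seminal vesicle epithelium with the construct. The SVE grafts held seminal vesicle epithelium whose genotype tag reads wild-type NKX3.1. A further 4 libraries, labelled PE, came from grafts of prostate epithelium with the same genotype tag and serve as a further point of comparison. Epithelial donors were 2 months old, the strain tag of every library gives a hybrid of 129/SvImJ and C57Bl/6J, and the growth protocol gives C57Bl/6J donors. All of these grafts were collected 3 months after implantation, and doxycycline in the drinking water for 3 months is stated for the inducible vector, which derives from pTRIPZ. The protocol names a wild type and a point mutant of NKX3.1 without linking either to the letter m, so the construct is called only mNKX3.1 here. Separate animals or grafts per library are not stated, and the p-values therefore measure the spread between libraries, which may be technical. That spread was pooled within groups over all 20 libraries of the series. It thus includes the PE libraries and the groups labelled UTY_sh and mNKX3.1+UTY_sh, of 4 libraries each, which are not described here.

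The prostate grows out of the urogenital sinus, which is endoderm, and the seminal vesicle out of the Wolffian duct, which is mesoderm. Both are androgen-dependent glands that fill the seminal fluid with a few very abundant secreted proteins, and urogenital mesenchyme is the tissue that induces prostate buds. NKX3.1 is a homeodomain transcription factor that appears early in prostate epithelium and is kept in its luminal cells. UTY, encoded on the Y chromosome, belongs to the KDM6 family of H3K27 demethylases, and EHMT2, also called G9a, methylates histone H3 at lysine 9. The title of the series places NKX3.1, G9a and UTY in a regulatory network of prostate differentiation.

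Levels are given as the deposited log2 values, on which a difference of 1 is a doubling for well-expressed genes. Genes without reads lie near a floor of about 2.31, so differences that involve low values are understated and noisy. The mNKX3.1 libraries held about 15470000 to 21860000 reads and the SVE libraries 20260000 to 25000000. The 50 most abundant genes took 35.6 to 37.1% of the reads in mNKX3.1 and 58 to 67.8% in SVE. The labelled epithelium was checked on its markers: Krt8, Krt18, Cdh1 and Epcam, which mark simple epithelium, were between 10.71 and 13.45 in all 8 libraries, while the kidney markers Umod, Slc12a1 and Nphs1 stayed between 1.14 and 3.11. Of the 9 kidney markers, 8 were below the expression minimum. The remaining one, Lrp2, the gene of the endocytic receptor megalin, was low at 2.57 to 3.57 in mNKX3.1, against 4.92 to 5.58 in SVE, and was called with a difference of -2.2 (SE 0.35, limma adjusted p = 2.49e-05). Rat reads that align to mouse genes are not separated in the table, and this touches stromal genes most. In grafts sequenced whole, fewer cells of a type and less RNA per cell cannot be told apart.

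Some libraries stood apart from their own group. SVE library 1 held many prostate-type genes at a fraction of the mNKX3.1 level. The mNKX3.1 library 3 was low in a small set of genes, led by Sbp, that its 3 companions held at high levels, and PE library 3 was high in the same genes where its own 3 companions were low. Over 7734 genes with a mean of 8 or more, the root mean square log2 difference between pairs of mNKX3.1 libraries was 0.0895 to 0.28, against 0.25 to 0.56 between pairs of SVE libraries. Pairs of 1 mNKX3.1 and 1 SVE library differed by 0.778 to 1.13, and pairs of 1 mNKX3.1 and 1 PE library by 0.105 to 0.402. Between pairs of PE libraries the difference was 0.172 to 0.454. The library nearest to mNKX3.1 library 3 among all 20 was PE library 4, at 0.105, and the one nearest to PE library 3 was mNKX3.1 library 1, at 0.195.

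Uty had values of 10.31, 10.29, 10.07 and 10.27 in mNKX3.1, against 9.55, 9.27, 9.04 and 9.29 in SVE. It rose by 0.94 (SE 0.11, limma adjusted p = 7.46e-07), and every mNKX3.1 library was above every SVE library. Of 4 Y-linked genes tested, 3 rose (background 31.7% of all genes higher). Ddx3y, which encodes an RNA helicase, rose by 0.79 (SE 0.12, adjusted p = 2.56e-05), and Kdm5d, an H3K4 demethylase gene, by 0.17 (SE 0.07, adjusted p = 0.0482), a call that did not hold under most other settings. Eif2s3y, which encodes a translation initiation factor, differed by -0.06 (adjusted p = 0.533). Kdm6a, the X-linked counterpart of Uty, differed by 0.07 (SE 0.07, adjusted p = 0.432). Ehmt2 had values of 11.27, 11.23, 11.32 and 11.34 in mNKX3.1, against 11.39, 11.26, 11.35 and 11.30 in SVE. These groups overlapped, and the difference of -0.04 did not pass (adjusted p = 0.608, 95% interval -0.16 to 0.09).

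Most of the measured transcriptome differed between the grafts. Of 13456 genes, 8385 were called at an adjusted p below 0.05 (62.3%), 4263 of them higher in mNKX3.1 (31.7%) and 4122 lower (30.6%). In 7382 genes (54.9%) the 4 libraries of one group all lay above or all below the 4 of the other. Small differences made up most of the calls: 2249 genes (16.7%) were called and differed at least 2-fold, 1160 higher (8.62%) and 1089 lower (8.09%), and the median difference over all genes was 0.02. Differences of at least 4 on the log2 scale were called in 97 genes that rose and 76 that fell, and differences of at least 8 in 7 that rose and 10 that fell. Without SVE library 1 the count of calls was 8330, and without mNKX3.1 library 3 it was 7916. When each library was scaled to its reads outside the 50 most abundant genes, a setting chosen after the data were seen, 3619 genes were higher and 4716 lower, so 43.4% of the calls were higher in place of 50.8%. Each list of genes below is read against these shares.

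**Figure D1:**
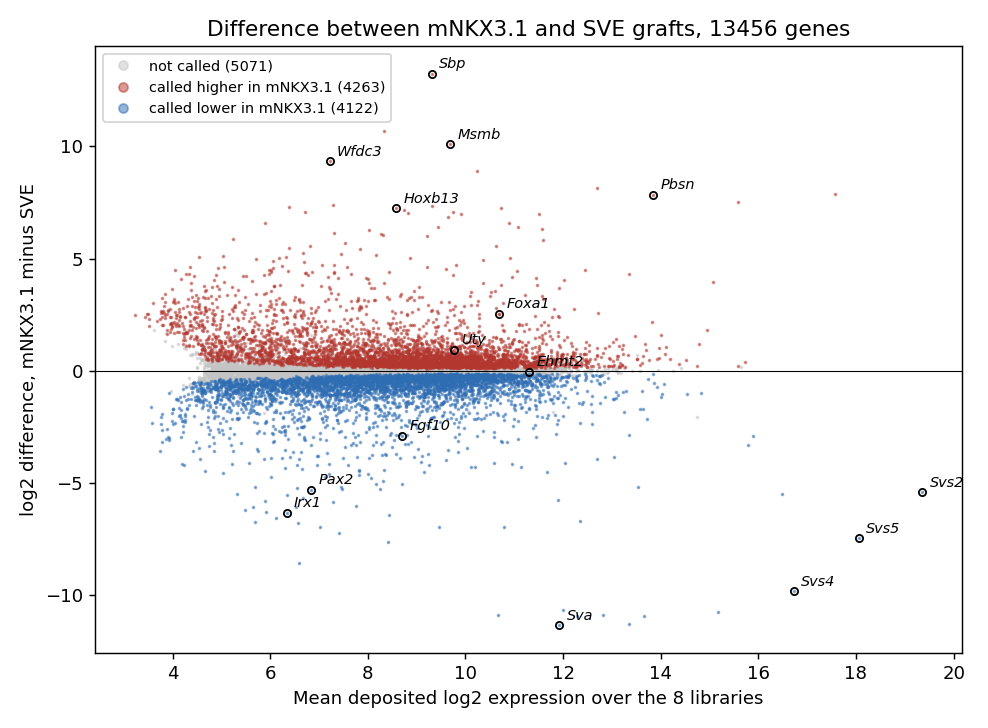
Each point is 1 of 13456 genes, with the mean log2 expression over the 8 libraries on the x axis and the log2 difference mNKX3.1 minus SVE on the y axis. Red points were called higher (4263), blue points lower (4122) and grey points were not called; Sbp, Msmb and Pbsn stand at the top, Sva and Svs4 at the bottom, and Ehmt2 on the zero line.

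Secreted proteins of the prostate made up the top of the table. Of 14 genes listed as prostate secretory products, 13 rose and 1 fell, with a median difference of 8.02 against 0.02 over all genes, and all 10 of the largest rises of the table were on this list, which was drawn up with earlier results of these data known. Msmb, which encodes the secreted beta-microseminoprotein, had values of 14.86, 15.02, 14.25 and 14.85 in mNKX3.1, against 7.0, 4.4, 3.32 and 3.84 in SVE. It was high in all 4 mNKX3.1 libraries and near the floor in 3 of the 4 SVE libraries, and it rose by 10.11 (SE 0.76, adjusted p = 2.77e-09). Defb50, a beta-defensin gene, was 14.75, 14.89, 14.35 and 14.75 in mNKX3.1, against 8.63, 5.40, 4.76 and 4.30 in SVE, a rise of 8.91 (SE 0.85, adjusted p = 6.09e-08). Wfdc3, which encodes a protein with whey acidic protein domains, was 12.02, 12.29, 11.08 and 12.15 in mNKX3.1, against 2.83, 1.83, 2.29 and 3.26 in SVE. All 4 SVE libraries lay at the floor for Wfdc3, and the rise of 9.34 had the smallest error among the 10 (SE 0.52, adjusted p = 3.95e-11).

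Pbsn, which encodes probasin, the androgen-regulated secretory protein whose promoter drives many prostate transgenes, was 17.69, 17.71, 17.96 and 17.72 in mNKX3.1, against 15.71, 10.93, 6.59 and 6.43 in SVE. Tgm4, the prostate transglutaminase that cross-links seminal plasma proteins, was 19.32, 19.25, 19.57 and 19.28 in mNKX3.1, against 17.51, 12.63, 8.64 and 8.52 in SVE. Both genes were even across the mNKX3.1 libraries and graded across the SVE libraries, with library 1 on top and library 2 next. Pbsn rose by 7.85 (SE 1.96, adjusted p = 0.00201) and Tgm4 by 7.53 (SE 1.93, adjusted p = 0.00249). Without SVE library 1 the rises were 9.78 and 9.42. The gene 9530053A07Rik followed the same order, with 21.36, 21.50, 21.64 and 21.58 in mNKX3.1, against 19.31, 14.47, 10.50 and 10.25 in SVE, and it rose by 7.89 (SE 1.99, adjusted p = 0.00212). Azgp1, the gene of zinc-alpha-2-glycoprotein, rose by 7.35 (SE 1.5, adjusted p = 0.000341), and Apof, an apolipoprotein gene, by 2.61 (SE 0.21, adjusted p = 8.37e-09). Folh1, which encodes the membrane glutamate carboxypeptidase known in human prostate as PSMA, was the member that fell, at 2.60 to 3.48 in mNKX3.1 and 5.18 to 5.86 in SVE. Its difference of -2.29 (SE 0.22) lies near the floor and shrank to -0.39 when values below 5 were raised to 5.

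Some other members of the list differed inside the mNKX3.1 group. Sbp, which encodes a spermine-binding protein of the prostate, was 18.48, 18.53, 8.46 and 18.22 in mNKX3.1, against 3.19, 1.84, 3.45 and 2.27 in SVE. Library 3 of mNKX3.1 was far below its companions and still above every SVE library, and the rise was 13.24 (SE 2.43, adjusted p = 0.000124), or 15.72 without that library. Its neighbour in name, Sbpl, was 16.47, 16.46, 6.84 and 16.25 in mNKX3.1, against 1.94, 2.35, 2.90 and 1.42 in SVE, a rise of 11.85 (SE 2.35, adjusted p = 0.000265). The gene 5430419D17Rik was 14.73, 14.75, 10.71 and 14.51 in mNKX3.1, against 4.56, 3.37, 2.13 and 1.89 in SVE, a rise of 10.69 (SE 1.04, adjusted p = 7.97e-08). Pigr, the receptor that carries polymeric immunoglobulin into secretions, was 12.93, 13.12, 10.35 and 12.89 in mNKX3.1, against 8.16, 5.12, 4.20 and 3.17 in SVE, a rise of 7.16 (SE 1.11, adjusted p = 2.03e-05). In each of these genes mNKX3.1 library 3 was the lowest of its group, and no mNKX3.1 library overlapped with SVE.

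**Figure D2:**
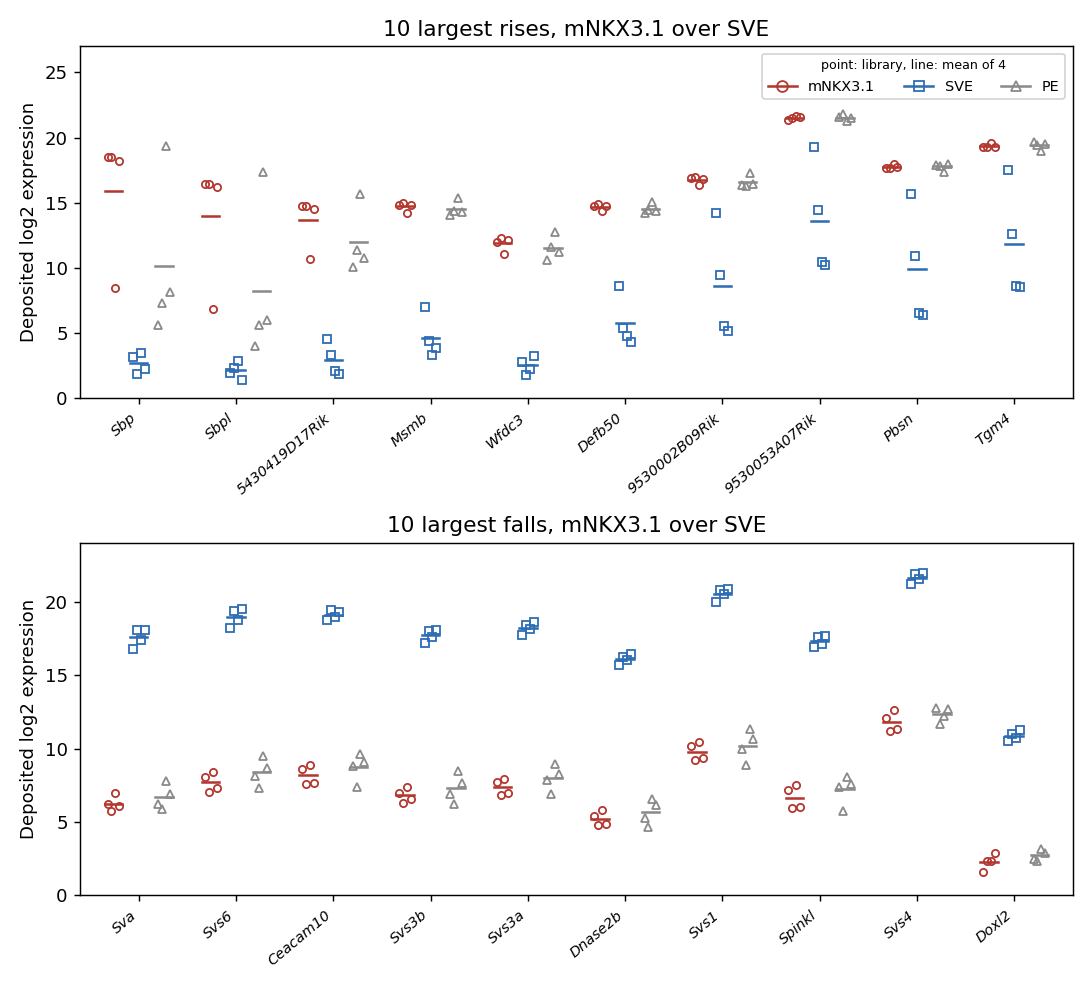
The deposited log2 expression of the 10 largest rises (top) and the 10 largest falls (bottom) is shown for each library of mNKX3.1 (circles), SVE (squares) and PE (triangles), with the mean of 4 libraries as a line. The mNKX3.1 and PE points lie together for most genes and away from SVE; Sbp and Sbpl are spread from 6.84 to 18.53 among the mNKX3.1 libraries.

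The prostate-type genes of SVE library 1 were described by their level relative to the mNKX3.1 mean, on the linear scale. The genes were chosen by a rule set after the values were seen. It bounds the SVE mean, so low shares in most SVE libraries follow from it in part. The 72 genes taken were those called with a log2 difference of at least 4 and a value of at least 8 in every mNKX3.1 library. Their median level in SVE library 1 was 26.2% of the mNKX3.1 mean, with the middle of the distribution between 19.9 and 29.4%, and 63 of the 72 genes were above 10%. The medians in SVE libraries 2, 3 and 4 were 1.84, 1.37 and 1.14%, and no gene was above 10% in any of them. The floor limits how small a share can be for genes of moderate level, so these medians understate differences between the 3 libraries. Abundant genes set SVE library 2 above libraries 3 and 4: Pbsn was at 0.874, 0.0429 and 0.0386%, and Tgm4 at 0.944, 0.0593 and 0.0546%. In SVE library 1 genes of different function had similar shares: 24.8% for the homeobox gene Hoxb13, 23.9% for Pbsn, 27.7% for Tgm4 and 26.6% for Slc45a3, a prostate membrane transporter gene known in human as prostein. Azgp1 was lower, at 13%, and so was Pigr, at 4.46%. Another 6 genes were below 2% in SVE library 1. They were Sbp at 0.00347%, 5430419D17Rik at 0.119%, Wfdc3 at 0.18%, Msmb at 0.457%, D030018L15Rik at 0.529% and Defb50 at 1.49%. The origin of these transcripts in SVE library 1 was not tested.

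**Figure D3:**
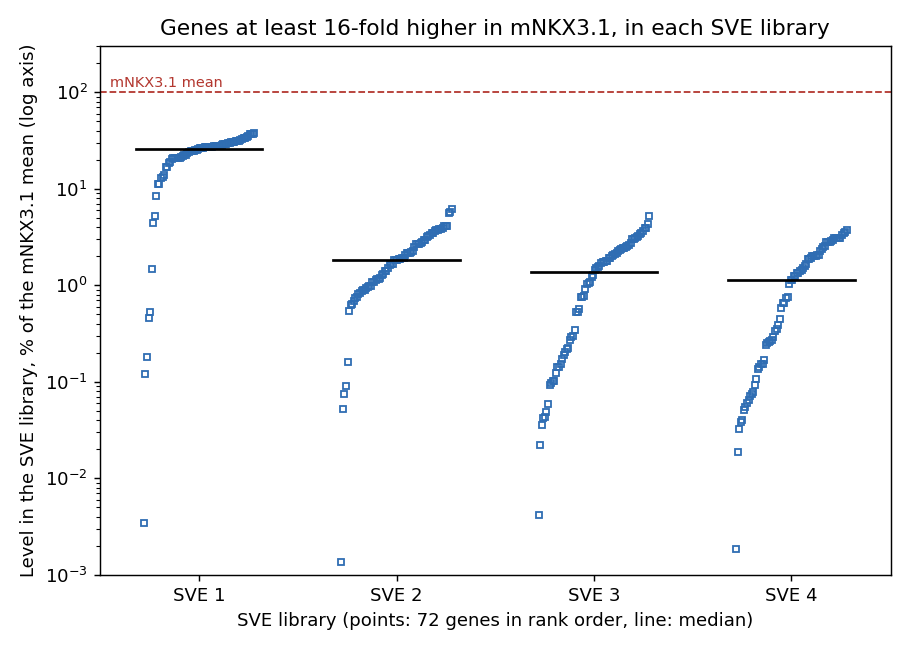
For each SVE library, 72 genes at least 16-fold higher in mNKX3.1 are drawn in rank order by their level as a percentage of the mNKX3.1 mean, on a log axis, with the median as a black line and 100% as a dashed line. Most points of SVE library 1 lie near 26.2%, and those of SVE libraries 2, 3 and 4 have medians between 1.14 and 1.84%.

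The secreted proteins of the seminal vesicle fell. Of 13 listed genes, 12 fell and none rose (background 30.6% lower), with a median difference of -10.67. The proteins encoded by the Svs genes form the bulk of seminal vesicle fluid and of the copulatory plug. Svs4 was 12.09, 11.18, 12.64 and 11.35 in mNKX3.1, against 21.20, 21.89, 21.55 and 21.95 in SVE, a fall of 9.83 (SE 0.32, adjusted p = 3.78e-14). Sva, the seminal vesicle autoantigen gene, was 6.21, 5.77, 6.97 and 6.06 in mNKX3.1, against 16.76, 18.09, 17.42 and 18.09 in SVE, and its difference of -11.34 (SE 0.37, adjusted p = 3.27e-14) was the largest fall of the table. In both genes the groups stood much further apart than the libraries within either group. Svs6 differed by -11.28, Ceacam10, a carcinoembryonic antigen family gene, by -10.94, Svs3b by -10.91, Svs3a by -10.88, Svs1 by -10.76 and the Kazal inhibitor gene Spinkl by -10.67, each with an SE of at most 0.40. Without SVE library 1 the differences were -11.54 for Svs6 and -11.61 for Sva.

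The falls were graded between members. As a percentage of the SVE mean on the linear scale, the 4 mNKX3.1 libraries kept 0.035, 0.0259, 0.0594 and 0.0316% of Sva and 0.13, 0.0691, 0.19 and 0.0778% of Svs4. They kept 0.528, 0.415, 0.897 and 0.492% of Svs5, and 1.88, 1.89, 3.39 and 2.21% of Svs2. Pate4, which encodes a small secreted protein of the seminal vesicle, stood at 1.95, 1.69, 3.51 and 1.91%, and Serpine2, the gene of the protease inhibitor nexin-1, at 10.8, 12.9, 16.8 and 14.3%. Library 3 of mNKX3.1 kept the most of each of these 6 genes. In log2 values Svs2 was 16.38, 16.38, 17.23 and 16.61 in mNKX3.1, against 21.57, 22.37, 21.92 and 22.42 in SVE, so that it remained an abundant transcript while it fell by 5.42 (SE 0.67, adjusted p = 1.59e-06). The PE libraries held Svs2 at 17.31, 17.26, 13.86 and 17.32.

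Spink3, a Kazal-type trypsin inhibitor gene, was the listed member that was not called. It was 16.15, 16.23, 6.52 and 15.91 in mNKX3.1, against 15.15, 16.17, 15.62 and 16.12 in SVE. Apart from mNKX3.1 library 3 the groups overlapped, and the difference was -2.06 (SE 2.16, adjusted p = 0.417, 95% interval -6.6 to 2.47), or 0.33 without that library (adjusted p = 0.888). The PE libraries were at 5.41, 4.92, 17.14 and 6.72, so that PE library 3 was high where its companions were low.

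Several Svs genes and Wfdc3 share a stretch of chromosome 2, and neighbours there moved in opposite directions. The annotation lists 34 protein-coding genes from Kcns1 to Dnttip1, of which 17 were tested, 14 did not reach the minimum value and 3 had no entry under that name. Of the 17 tested, 10 fell, 3 rose and 4 were not called. Those that fell include Svs2, Svs3a, Svs3b, Svs4, Svs5 and Svs6 beside Wfdc15b, a whey acidic protein gene, with a difference of -6.04 (SE 0.29, adjusted p = 5.48e-12), and the antileukoproteinase gene Slpi with -3.02 (SE 0.5, adjusted p = 4.5e-05). Those that rose were Wfdc3, the syndecan gene Sdc4, by 1.56 (SE 0.19, adjusted p = 9.82e-07), and Pigt, a subunit of the GPI transamidase, by 0.53 (SE 0.05, adjusted p = 4.24e-08). The genes of this stretch were taken after values had been seen.

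The promoters of genes that moved in opposite directions are shown for 2 rising and 2 falling genes, 250 bases before to 50 after the annotated start, from RefSeq (GRCm38.p6, a later build than the one the submitters' notes name). In the sequences TAAGTA, a form of the NKX3.1 binding motif, and TGTTCT, a half-site of the androgen response element, are in capitals; a TGTTCT on the other strand reads AGAACA. Pbsn lies at chrX:77853451-77853750 (minus strand), Wfdc3 at chr2:164743218-164743517 (minus strand), Svs3a at chr2:164289017-164289316 (plus strand) and Svs4 at chr2:164278258-164278557 (minus strand).
Pbsn: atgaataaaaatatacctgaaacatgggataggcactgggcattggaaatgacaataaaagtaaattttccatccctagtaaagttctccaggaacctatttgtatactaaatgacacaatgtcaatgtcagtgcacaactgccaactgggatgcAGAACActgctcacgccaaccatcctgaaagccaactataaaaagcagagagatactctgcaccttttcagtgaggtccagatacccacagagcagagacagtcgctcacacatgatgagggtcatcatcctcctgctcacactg
Wfdc3: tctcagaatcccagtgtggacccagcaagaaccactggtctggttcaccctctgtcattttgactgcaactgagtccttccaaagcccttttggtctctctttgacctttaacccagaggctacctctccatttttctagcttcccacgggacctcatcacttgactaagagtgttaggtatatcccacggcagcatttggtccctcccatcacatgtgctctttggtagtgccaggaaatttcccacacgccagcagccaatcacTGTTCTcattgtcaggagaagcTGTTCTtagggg
Svs3a: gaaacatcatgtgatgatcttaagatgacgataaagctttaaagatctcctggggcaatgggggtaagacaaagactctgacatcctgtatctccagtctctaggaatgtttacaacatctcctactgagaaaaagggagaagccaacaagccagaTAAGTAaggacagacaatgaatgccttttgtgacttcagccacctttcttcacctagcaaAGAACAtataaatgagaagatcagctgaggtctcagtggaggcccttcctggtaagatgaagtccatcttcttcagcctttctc
Svs4: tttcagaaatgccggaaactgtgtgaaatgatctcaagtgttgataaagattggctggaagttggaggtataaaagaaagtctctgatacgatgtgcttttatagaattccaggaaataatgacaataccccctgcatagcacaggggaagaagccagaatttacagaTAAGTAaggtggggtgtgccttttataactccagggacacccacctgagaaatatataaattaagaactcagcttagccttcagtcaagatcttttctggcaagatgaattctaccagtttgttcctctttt
TAAGTA on either strand was found in none of the 10 prostate secretory genes with a promoter in the table (of 14 listed) and in 3 of the 10 seminal vesicle secretory genes (of 13 listed), which were Svs3a, Svs3b and Svs4, against 7.59% of all 32851 promoters. TGTTCT on either strand was found in 7 of 10 and 7 of 10, against 18.97% of all promoters. Genes with several annotated starts count as holding a motif if any start does, whereas the share of all promoters counts each start. The Svs3a and Svs3b promoters are nearly the same sequence, as are those of Svs5 and Svs6, so their matches are not independent. The 2 motifs were searched separately. A match is a description of the letters only.

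Over all genes, 3 were at 8 or more in all 4 mNKX3.1 libraries and below 4 in all 4 SVE libraries, and 11 genes showed the reverse. The 3 were Sbp and Wfdc3, both of the prostate secretory list, and D030018L15Rik. Irx1, an Iroquois homeobox gene, was 3.52, 3.07, 3.42 and 2.71 in mNKX3.1, against 8.92, 9.59, 9.62 and 9.87 in SVE. Uox, the gene of urate oxidase, was 3.00, 3.39, 3.29 and 2.99 in mNKX3.1, against 9.30, 10.38, 9.75 and 10.45 in SVE. Slc13a2, which encodes a sodium-dependent dicarboxylate transporter, was 2.94, 2.87, 2.25 and 3.28 in mNKX3.1, against 9.01, 9.53, 9.47 and 9.66 in SVE. In these genes the mNKX3.1 libraries all lay at the floor and all 4 SVE libraries were well above it, SVE library 1 included. Camkv, Dgat2l6, Doxl2, Gm2115, Skap1, Smpx and Sval2 were also among the 11. Among genes picked after values were seen, Agr2, a protein disulfide isomerase family gene of secretory epithelia, rose by 6.97 (SE 1.64, adjusted p = 0.00126), the matrilysin gene Mmp7 by 6.39 (SE 1.33, adjusted p = 0.000408) and Fut9, a fucosyltransferase gene, by 7.03 (SE 1.56, adjusted p = 0.000755). In the same selection the acute-phase gene Orm3 differed by -7.21 (SE 0.17, adjusted p = 1.77e-15), the glutamate decarboxylase gene Gad2 by -6.41 (SE 0.36, adjusted p = 4.29e-11) and the kinase gene Lrrk2 by -4.42 (SE 0.12, adjusted p = 7.88e-15).

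Genes that fold and move secreted proteins were mostly higher in mNKX3.1. Of 29 ER chaperone and stress genes, 26 rose and 2 fell, with a median of 0.91 and 26 of 29 without overlap (background 54.9%). Atf6, an ER stress sensor and transcription factor, was 12.55 to 12.81 in mNKX3.1 and 10.83 to 11.44 in SVE, a rise of 1.53 (SE 0.12, adjusted p = 3.52e-09). Edem2, which acts in ER-associated degradation, rose by 1.5 (SE 0.11, adjusted p = 1.29e-09), the co-chaperone gene Dnajc3 by 1.42 (SE 0.12, adjusted p = 8.88e-09) and Derl3, of the degradation channel, by 1.16 (SE 0.09, adjusted p = 3.59e-09). Hspa5, which encodes the chaperone BiP, rose by 1.21, Hsp90b1 by 1.02 and the disulfide isomerase genes Pdia6 and Pdia4 by 2.18 and 1.79; these 4 were picked after values were seen. The 2 that fell were Xbp1, with a difference of -0.24, and Ern1, with -0.43, which encode the transcription factor and the kinase-nuclease of the IRE1 arm. Atf4, which encodes a stress transcription factor, was not called.

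Of 25 translocon and signal peptidase genes, 15 rose and 3 fell (median 0.29), of 32 genes of ER to Golgi transport 20 rose and 2 fell (median 0.30), and of 10 oligosaccharyltransferase genes 8 rose and 1 fell (median 0.27). Srp14, of the signal recognition particle, rose by 1.34 (SE 0.11), and Sec11c, of the signal peptidase, by 0.60 (SE 0.06). Creb3l4, a membrane-bound transcription factor that is abundant in human prostate, was 7.75 to 8.18 in mNKX3.1 and 5.11 to 6.17 in SVE, a rise of 2.36 (SE 0.21, adjusted p = 3.14e-08). The cargo receptor gene Lman2 rose by 0.58 (SE 0.06) and Tmed3 by 0.99 (SE 0.11). Stt3b, a catalytic subunit of oligosaccharyltransferase, went against its list, at 12.03 to 12.10 in mNKX3.1 and 13.13 to 13.71 in SVE, a fall of 1.43 (SE 0.1, adjusted p = 7.67e-10). Ero1lb, an ER oxidase gene outside these lists and picked after its values were seen, differed by -4.10 (SE 0.15, adjusted p = 1.64e-13).

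Enzymes that build glycans moved both ways. Of 39 mucin and glycosyltransferase genes tested, 13 rose and 10 fell, shares close to those of all genes, and the sign of their median changed with the scaling. Fut2, a fucosyltransferase gene, was 11.60 in every mNKX3.1 library and 9.97 to 10.52 in SVE, a rise of 1.29 (SE 0.08, adjusted p = 2.08e-10). B3gnt8, an N-acetylglucosaminyltransferase gene, differed by -3.30 (SE 0.2, adjusted p = 1.13e-10), Fut4 by -2.18 (SE 0.14, adjusted p = 2.77e-10) and Galnt2, which starts O-glycans, by -2.06 (SE 0.09, adjusted p = 3.07e-12). The N-glycan genes Man1a, a mannosidase, and Mgat4a, an N-acetylglucosaminyltransferase, both picked after values were seen, differed by 4.48 (SE 0.78) and -4.28 (SE 0.15).

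Among small molecules of seminal fluid, 30 genes of zinc and citrate handling were tested, of which 16 rose and 8 fell. Slc30a10, which encodes a manganese and zinc efflux transporter, was 7.59 to 8.58 in mNKX3.1 and 1.68 to 3.63 in SVE, a rise of 5.86 (SE 0.45, adjusted p = 3.18e-09), which became 3.16 when values below 5 were raised to 5. Aco1, the cytosolic aconitase, rose by 0.93 (SE 0.09, adjusted p = 5.65e-08), and Slc25a1, the mitochondrial citrate carrier, by 0.89 (SE 0.08, adjusted p = 3.26e-08). Of 8 polyamine genes tested, 3 rose and 3 fell (37.5% each, against 31.7 and 30.6% of all genes). Spermine synthase, Sms, rose by 1.36 (SE 0.18) and the acetyltransferase gene Sat1 by 1.12 (SE 0.13), while spermine oxidase, Smox, fell by 1.76 (SE 0.12) and ornithine decarboxylase, Odc1, by 0.27 (SE 0.07). Of 6 genes of the fructose pathway, 3 rose and none fell, led by Sord, the sorbitol dehydrogenase that makes fructose, at 11.93 to 12.02 in mNKX3.1 and 10.84 to 11.19 in SVE, a rise of 0.92 (SE 0.08, adjusted p = 1.01e-08).

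Of 24 genes of fluid and ion transport, 8 rose and 8 fell, again near the background. Clca2 and Clca1, calcium-activated chloride channel regulators, differed by -2.82 (SE 0.21) and -2.47 (SE 0.21). Slc26a4, the anion exchanger pendrin, rose by 6.61 and the aquaporin gene Aqp8 by 4.24, both picked after values were seen. Of 236 solute carriers, 98 rose and 73 fell. Slc1a1, a glutamate transporter gene, was 4.15 to 4.70 in mNKX3.1 and 9.96 to 10.42 in SVE, a fall of 5.83 (SE 0.2, adjusted p = 4.63e-14). Of 20 genes of lipid synthesis, 9 rose and 5 fell: the desaturase gene Scd1 rose by 1.76 (SE 0.22), and the fatty acid elongase genes Elovl6 and Elovl5 differed by -3.17 (SE 0.19) and -1.06 (SE 0.06).

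Amino acid supply and tRNA charging gave 9 rises and 6 falls among 26 genes. The shares were 34.6% higher and 23.1% lower, against 31.7 and 30.6% of all genes. Phgdh, the first enzyme of serine synthesis, rose by 1.70 (SE 0.16, adjusted p = 6.82e-08), whereas Psat1, the next enzyme of the same pathway, differed by -1.09 (SE 0.09, adjusted p = 1.36e-08). Slc7a11, of the cystine exchanger, rose by 2.54 (SE 0.31, adjusted p = 1.13e-06).

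Proteases and their inhibitors were divided as well. Of 17 serine proteases tested, 8 rose and 7 fell, and 71 of the 88 listed did not reach the minimum value. Plau, the urokinase gene, was 8.94, 8.96, 9.63 and 9.06 in mNKX3.1, against 11.62, 12.49, 12.45 and 12.80 in SVE, a fall of 3.19 (SE 0.31, adjusted p = 7.9e-08), with mNKX3.1 library 3 the highest of its group. St14, the membrane protease matriptase, rose by 0.74 (SE 0.07, adjusted p = 2.28e-08). Of 34 protease inhibitors, 12 rose and 12 fell (35.3% each), near the background of 31.7 and 30.6%. The members at the extremes are the secretory products given above. Spink11, a Kazal inhibitor gene, was 3.94 to 5.07 in mNKX3.1 and 12.09 to 12.37 in SVE, a fall of 7.61 (SE 0.29, adjusted p = 2.28e-13).

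Of 8 Wolffian duct regulators tested, transcription factors of the embryonic source of the seminal vesicle, 6 fell and 2 rose (median -1.04). Pax2, the paired box factor of the Wolffian duct and kidney, was 3.82 to 4.71 in mNKX3.1 and 9.36 to 9.59 in SVE, a fall of 5.30 (SE 0.28, adjusted p = 2.28e-11). Emx2, a homeobox gene of the urogenital ridge, differed by -1.98 (SE 0.44, adjusted p = 0.000786) and Wt1, of the intermediate mesoderm, by -1.61 (SE 0.1, adjusted p = 3.64e-10). Pax8 differed by -2.24 (SE 0.19) at values of 2.78 to 3.31 in mNKX3.1 and 5.02 to 5.75 in SVE, and was no longer called when values below 5 were raised to 5, with -0.32. The 2 that rose were Hoxa10, by 1.46 (SE 0.17), and Hoxa11, by 0.52 (SE 0.15).

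Of 11 urogenital sinus regulators, 5 rose and 3 fell (median -0.02), and 4 rose and 4 fell when values were scaled to the reads outside the 50 most abundant genes. Hoxb13, the homeobox gene of prostate epithelium, was 12.32, 12.18, 12.11 and 12.21 in mNKX3.1, against 10.20, 5.26, 2.86 and 1.49 in SVE. The SVE libraries were graded as for Pbsn, and Hoxb13 rose by 7.25 (SE 1.57, adjusted p = 0.000581). Foxa1, a pioneer factor of prostate lumen, was 11.81 to 12.12 in mNKX3.1 and 9.09 to 10.24 in SVE, a rise of 2.54 (SE 0.23, adjusted p = 3.67e-08), and the epithelial ETS factor gene Ehf rose by 1.18 (SE 0.12, adjusted p = 9.65e-08). Gata2, a zinc finger factor gene expressed in prostate, was 12.14 to 12.59 in mNKX3.1 and 13.86 to 14.35 in SVE, a fall of 1.83 (SE 0.14, adjusted p = 2.39e-09). Sox9 and Shh were not called, with differences of -0.02 (SE 0.16) and -0.08 (SE 0.31).

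Hox genes were divided by cluster. These genes give cells their position along the body axis, and the clusters are copies of one ancestral row. Of 24 Hox genes tested, the 7 of cluster A gave 6 rises and no fall, the 9 of cluster B gave 1 rise and 7 falls, and the 8 of cluster D gave no rise and 7 falls, while no cluster C gene was tested. Hoxa9 rose by 2.11 (SE 0.26, adjusted p = 1.59e-06) and Hoxa3, Hoxa5 and Hoxa7 by 1.09, 0.86 and 0.74, at low values. In cluster B the single rise was Hoxb13, and Hoxb8 was 6.63 to 6.88 in mNKX3.1 and 10.27 to 10.80 in SVE, a fall of 3.90 (SE 0.15, adjusted p = 3.48e-13). Hoxb9 was not called, at 10.20 to 10.62 in mNKX3.1 and 10.55 to 10.63 in SVE. In cluster D, Hoxd9 fell by 3.75 (SE 0.2, adjusted p = 2.01e-11), Hoxd3 by 3.32 (SE 0.17, adjusted p = 1.5e-11), Hoxd8 by 2.85 (SE 0.15, adjusted p = 1.93e-11) and Hoxd4 by 2.82 (SE 0.11, adjusted p = 2.28e-13). Hoxd13, the most posterior of the cluster, differed by -0.55 (SE 0.18, adjusted p = 0.0122), a call lost under 2 other settings. Hoxd12, also counted among the 7 falls, differed by -0.65 (SE 0.26, adjusted p = 0.0383) at values of 4.17 to 4.63 in mNKX3.1 and 4.67 to 5.59 in SVE. Its call was lost with no filter on low values (adjusted p = 0.0548), with values below 5 raised to 5 (difference -0.23, adjusted p = 0.231) and without any one of mNKX3.1 libraries 1, 2 and 3 or SVE libraries 1 and 3.

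**Figure D4:**
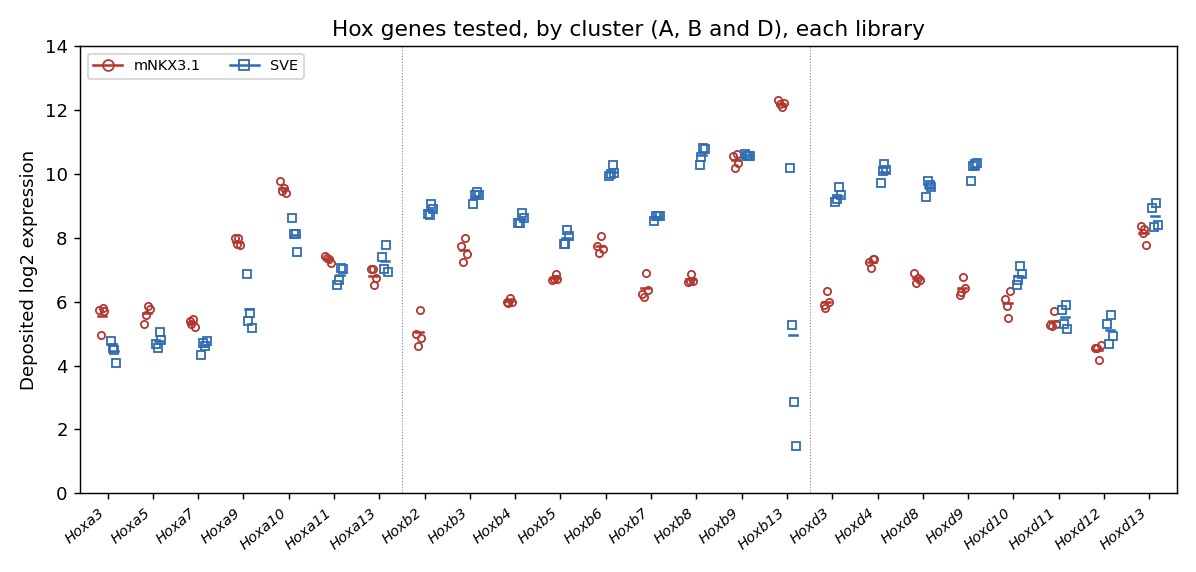
The deposited log2 expression of the 24 Hox genes tested is shown for each library of mNKX3.1 (circles) and SVE (squares), in order within clusters A, B and D, with the mean of 4 libraries as a line. Cluster A points of mNKX3.1 lie above SVE in 6 of 7 genes, and most points of clusters B and D lie below, with Hoxb13 far above.

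Other factor families were mixed. Of 17 forkhead factors, 6 rose and 5 fell (median 0.05), shares of 35.3 and 29.4% near the background of 31.7 and 30.6%. Of 19 T-box, Tead and EMT factors, 12 fell and 4 rose (median -0.55): Tead2, of the Hippo pathway, differed by -2.17 (SE 0.14), Tbx2 by -1.99 (SE 0.14) and Tbx3 by -1.26 (SE 0.08), while the epithelial factor gene Grhl1 rose by 1.29 (SE 0.17). Of 16 GATA and KLF factors, 8 fell and 1 rose, and of 26 other homeobox genes 13 fell and 7 rose. Among the homeobox genes Pbx3, a Hox cofactor, fell by 2.13 (SE 0.19, adjusted p = 3.26e-08). Of 20 ETS factors, 9 fell and 6 rose; Elf5, a factor of secretory epithelia, was 10.79 to 11.33 in mNKX3.1 and 12.64 to 13.26 in SVE, a fall of 2.02 (SE 0.18, adjusted p = 2.61e-08), and Ets2 rose by 1.68 (SE 0.15, adjusted p = 3.38e-08).

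Genes of signalling pathways fell more often than they rose (background 30.6% lower and 31.7% higher). Of 17 FGF pathway genes, 11 fell and 2 rose; of 42 Wnt genes, 19 fell and 8 rose; of 40 BMP and TGF-beta genes, 19 fell and 8 rose; and of 20 Notch genes, 11 fell and 4 rose. Fgf10, the mesenchymal growth factor that prostate and seminal vesicle need to branch, was 7.05 to 7.51 in mNKX3.1 and 9.33 to 11.03 in SVE, a fall of 2.90 (SE 0.26, adjusted p = 3.02e-08), and its spread was wider in SVE. The receptor gene Fgfr3 fell by 2.15 (SE 0.14, adjusted p = 3.44e-10). The ligand gene Tgfb3 fell by 1.64 (SE 0.07, adjusted p = 5.2e-13), and Id2, a target of BMP signalling, by 2.01 (SE 0.1, adjusted p = 1.31e-11). Bmp7, a ligand gene of the urogenital sinus, went the other way, at 10.67 to 10.90 in mNKX3.1 and 7.35 to 9.10 in SVE, a rise of 2.68 (SE 0.29, adjusted p = 2.79e-07). Of 9 hedgehog genes, 3 fell, with the target gene Gli1 lower by 0.91 (SE 0.11, adjusted p = 1.47e-06), and 6 were not called. Stromal markers moved in the same direction as many of these ligands, as given below, and their part in the result was not tested.

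Several genes of steroid hormone receptors were higher in mNKX3.1. The oestrogen receptor genes Esr1 and Esr2 rose by 1.52 (SE 0.15, adjusted p = 1.1e-07) and 1.61 (SE 0.3, adjusted p = 0.000137), the progesterone receptor gene Pgr by 1.24 (SE 0.25, adjusted p = 0.000255) and the mineralocorticoid receptor gene Nr3c2 by 1.10 (SE 0.14, adjusted p = 1.61e-06). The glucocorticoid receptor gene Nr3c1 differed by 0.06 (SE 0.05, adjusted p = 0.317). Over the whole list of 20 steroid response genes, 6 rose and 6 fell (30% each), near the background of 31.7 and 30.6%. Sgk1, a steroid-induced kinase gene, differed by -2.14 (SE 0.23), and Acsl3, an androgen-induced acyl-CoA synthetase gene, rose by 2.61 (SE 0.35).

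Among enzymes of histone methylation, 12 of 18 H3K9 genes were called, 5 higher and 7 lower, and 9 of 14 H3K27 genes, 5 higher and 4 lower, both near the background of 62.3%. The H3K9 count became 2 higher and 8 lower when values were scaled to the reads outside the 50 most abundant genes. Without SVE library 1 it was 3 higher and 7 lower. Suv39h2, an H3K9 methyltransferase gene, rose by 1.38 (SE 0.2, adjusted p = 1.18e-05), and the chromodomain gene Cdyl differed by -1.39 (SE 0.13, adjusted p = 3.16e-08). Ehmt1, the partner of Ehmt2, differed by 0.02 (SE 0.06, adjusted p = 0.794), and Wiz, a zinc finger partner of both, by -0.32 (SE 0.05, adjusted p = 1e-05). Kdm6b, the autosomal H3K27 demethylase gene of the UTY family, fell by 0.55 (SE 0.08, adjusted p = 7.31e-06), against the rise of Uty. The polycomb genes Suz12 and Ezh1 were not called, with differences of 0.00 (SE 0.08) and -0.03 (SE 0.05), and Ezh2 differed by -0.46 (SE 0.14, adjusted p = 0.00946).

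Luminal and basal markers of the epithelium differed in modest steps. Of 11 luminal markers, 8 rose and 2 fell (median 0.28), and of 13 basal markers 3 rose and 7 fell (median -0.52). Epcam rose by 1.73 (SE 0.16, adjusted p = 4.73e-08), Cd24a by 1.61 (SE 0.19, adjusted p = 6.74e-07) and the E-cadherin gene Cdh1 by 0.73 (SE 0.07, adjusted p = 4.01e-08). The basal factor gene Trp63 was 8.13 to 8.26 in mNKX3.1 and 9.12 to 9.50 in SVE, a fall of 1.10 (SE 0.09, adjusted p = 9.54e-09), and the basal keratin genes Krt5 and Krt14 fell by 0.58 (SE 0.13) and 1.29 (SE 0.2). The laminin chain gene Lama3 went against its list, with a rise of 2.93 (SE 0.36, adjusted p = 1.25e-06). Of 16 proliferation genes, 2 rose and 3 fell (12.5 and 18.8%, below the 31.7 and 30.6% of all genes). Of the uroplakins, the membrane proteins of urothelium, Upk1a was 10.53 to 11.62 in mNKX3.1 and 2.88 to 7.15 in SVE, a rise of 6.10 (SE 0.74, adjusted p = 1.2e-06), while Upk2 fell by 2.49 (SE 0.18, adjusted p = 1.79e-09).

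Markers of other cell types moved with the groups. All 12 smooth muscle genes fell (median -1.18), and their summed level, in log2, was 16.01 to 16.26 in mNKX3.1 and 16.97 to 17.65 in SVE. The actin gene Acta2 was 13.43 to 13.62 in mNKX3.1 and 14.23 to 14.88 in SVE, a fall of 1.02 (SE 0.14, adjusted p = 4.39e-06). Of 15 fibroblast and matrix genes, 10 fell and none rose, with sums of 14.48 to 14.63 in mNKX3.1 and 14.77 to 15.33 in SVE. Of 10 endothelial genes, 6 fell and 1 rose, with sums of 11.21 to 11.47 in mNKX3.1 and 11.62 to 11.89 in SVE.

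Other tissues were higher in mNKX3.1. Of 9 adipocyte genes, 8 rose (median 2.10, background 31.7% higher), with sums of 12.05 to 12.28 in mNKX3.1 and 10.97 to 11.77 in SVE. Only 3 of these 9 genes were without overlap (background 54.9%). Adipoq was uneven in SVE, at 4.19, 7.01, 5.41 and 3.17, against 7.05 to 7.80 in mNKX3.1. Of 9 nerve and neuroendocrine genes 8 rose (median 2.25) and 7 were without overlap, with sums of 9.91 to 10.61 in mNKX3.1 and 8.25 to 8.74 in SVE. The tubulin gene Tubb3 was 6.85 to 8.01 in mNKX3.1 and 2.02 to 3.15 in SVE, and the synaptic gene Snap25 was 6.50 to 7.76 in mNKX3.1 and 1.88 to 3.35 in SVE. Both are near the floor in SVE, and the rises of 4.59 (SE 0.54) and 4.28 (SE 0.53) became 2.23 and 2.03 when values below 5 were raised to 5. Of 10 leukocyte genes, 4 rose and none fell, with sums of 11.39 to 13.56 in mNKX3.1 and 11.46 to 11.85 in SVE; mNKX3.1 library 1, at 11.39, was below every SVE library, so the groups overlapped. Without it the pan-leukocyte gene Ptprc, not called among all libraries with 0.74 (SE 0.49, adjusted p = 0.202), differed by 1.21 (adjusted p = 0.0299). The part of these other cells in the differences above was not tested.

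**Figure D5:**
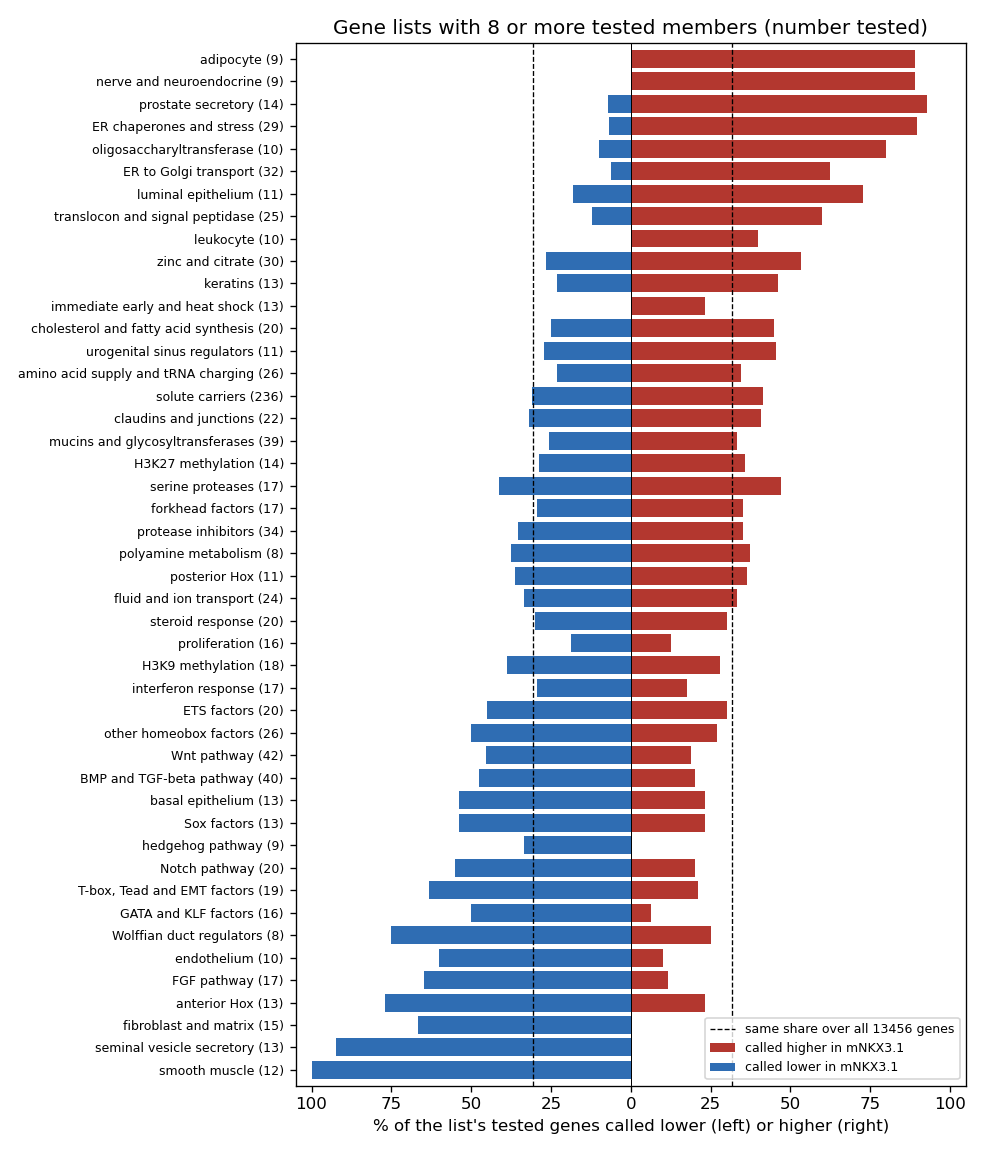
For each gene list with 8 or more tested members, bars give the percentage called higher (right, red) and lower (left, blue) in mNKX3.1, with the number tested in brackets; dashed lines mark 31.7 and 30.6%, the shares over all 13456 genes. Prostate secretory, ER chaperone, adipocyte and nerve lists stand at the top, and smooth muscle and seminal vesicle secretory lists at the bottom.

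Set against grafts of prostate epithelium, the mNKX3.1 grafts gave no call in the same model: 0 of 13456 genes (0%) had an adjusted p below 0.05, and 65 (0.483%) had an unadjusted p below 0.05. The mNKX3.1 libraries and the PE libraries were close in many, but not all, of the genes that set mNKX3.1 apart from SVE. Hoxb13 was 12.11 to 12.32 in mNKX3.1 and 11.99 to 12.43 in PE, Pax2 3.82 to 4.71 in mNKX3.1 and 3.01 to 4.98 in PE, Foxa1 11.81 to 12.12 in mNKX3.1 and 11.60 to 12.30 in PE, and Uty differed by 0.00 between the 2 groups (95% interval -0.23 to 0.23). Sbp was not close, at 18.48, 18.53, 8.46 and 18.22 in mNKX3.1, against 5.63, 7.35, 19.38 and 8.14 in PE. Nor was 5430419D17Rik, at 14.73, 14.75, 10.71 and 14.51 in mNKX3.1, against 10.06, 11.38, 15.67 and 10.75 in PE. For genes that vary widely among SVE-type libraries the shared spread makes the intervals wide, for Pbsn -4.14 to 4.10, so the absence of a call does not show equal levels. The comparison with PE and the comparison with SVE share the mNKX3.1 libraries.

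The count against PE rested on the libraries that stand apart. Without mNKX3.1 library 3 and PE library 3, a setting chosen after Sbp was seen, 318 genes were called, 268 higher and 50 lower in mNKX3.1, and 1455 had an unadjusted p below 0.05. Leaving out only PE library 3 or only mNKX3.1 library 3 gave 0 calls, with 788 and 222 genes at an unadjusted p below 0.05. The genes with the smallest p without both libraries were Nupr1, a stress-response gene, with a difference of 5.40 (adjusted p = 2.42e-14), the calcium channel gene Trpv6 with 3.58 (adjusted p = 4.37e-12), Spink3 with 10.41 (adjusted p = 4.37e-12), the blood group glycosyltransferase gene Abo with 3.45 (adjusted p = 1.77e-11) and the deacetylase gene Hdac9 with 3.72 (adjusted p = 2.05e-11). Sbp and Sbpl differed by 11.37 and 11.16. Since the pair was chosen on the level of Sbp, these p-values describe the remaining 3 against 3 libraries and support no call of their own.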

How the data were processed

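Poly-A RNA of 20 graft libraries, 4 in each of 5 groups, was sequenced as TruSeq libraries on a HiSeq 2000, per the labels. The mouse genome mm9 and the tools TopHat2 2.0.4, bcl2fastq 1.8.4, DESeq and Cufflinks 2.0.2 are listed in the submitters' processing notes. How they were combined, which annotation and counter were used and how rat reads were treated is not given in the sources used here. Log2 values between 0.0193 and 22.42 were deposited by the authors in 1 table, with low values drawn towards a floor of about 2.31. Between 11 and 13, 100% of the antilogs lay on whole-read steps (within 0.1 of a read), and between 8 and 10 only 18 to 20.9% did, so reads were taken from these steps as a depth per library only and no count test was run.

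limma 3.58.1 (R 4.3.3) was used to fit 1 mean per group over the 20 libraries together, with a variance trend, empirical Bayes moderation and Benjamini-Hochberg adjustment over the 13456 genes with a value of 5 or more in at least 4 libraries. A gene was called at an adjusted p below 0.05. The same steps were run on simulated data with normal noise and an equal spread in all groups. Unequal spread between groups and outlying libraries were not simulated. Groups came from the labels, and library numbers follow deposit order, so they pair nothing. Named genes are Uty and Ehmt2, the 10 largest called rises and falls whose groups do not overlap and whose mean reaches 5, and up to 4 called members of each list by smallest p, with uncalled members of the secretory lists; some genes that this rule takes are not reported here. The members and the 53 lists (1570 genes) were chosen with earlier results of these data known. Promoters came from RefSeq (GRCm38.p6) by gene symbol, and figures were drawn with matplotlib 3.10.9.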

Additional observations from a re-analysis of the deposited data

Results flagged for a closer look

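In 13 of 146 groups of 4 libraries, 1 library lay far from the other 3 for its group's range; chance gives about 1 in 20 such groups. Most of these were mNKX3.1 library 3. It was low in Sbp, at 8.46 with the others between 18.22 and 18.53, in Sbpl, at 6.84 against 16.25 to 16.47, and in Spink3, at 6.52 against 15.91 to 16.23. It was also low in 5430419D17Rik, at 10.71 against 14.51 to 14.75, in D030018L15Rik, at 8.05 against 10.53 to 10.79, and in Pigr, at 10.35 against 12.89 to 13.12. Smaller gaps of the same library were seen for Adipoq, at 7.05 against 7.72 to 7.80, and Uty, at 10.07 against 10.27 to 10.31, and it was high in Pbsn, at 17.96 against 17.69 to 17.72, and in Upk1b, at 10.61 against 10.28 to 10.34. The mNKX3.1 library 1 was low in Alas2, a gene of red cell haem synthesis, at 7.29 against 7.54 to 7.58, and in Camkv, at 1.71 against 3.01 to 3.21, where all values lie at the floor. The SVE library 3 was high in Folh1, at 5.86 against 5.18 to 5.29.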

How the results depend on the processing

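The count of genes called between mNKX3.1 and SVE stayed between 6969 (a minimum value of 7) and 8761 (no filter) over other filters, scalings, floors, variance models and sets of libraries, from 7800 to 8330 when 1 library was left out, and no gene called with all libraries was called in the opposite direction in any of these. Against PE, 0 genes were called under the same settings, when 1 library was left out included (32 to 788 at an unadjusted p below 0.05), and 318 without mNKX3.1 library 3 and PE library 3. For 360 named genes, 5566 of 5719 comparisons with an alternative stayed on the same side of the threshold, 126 lost the call and 27 gained it. A change of direction with a call in either fit was seen in 0 comparisons. Genes called in neither fit could change sign, as did Spink3, at -2.06 with all libraries and 0.33 without mNKX3.1 library 3. The lost and gained calls came from 37 genes, most of them with small differences. No paired analysis was possible because the library numbers come from the order of deposit and pair nothing. Genes near the floor are limited by the scale: 89.9% of the genes kept had a mean below the range in which whole reads can be seen.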
